A study of Mus musculus with 6 samples.

Results

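Collagen chains were taken as every gene whose symbol reads Col, a number, a and a number (such as Col1a1) and that is listed in all 6 count tables. The rule found 44 chains among the 20573 genes shared by the tables, and no collagen symbol was in some tables only. By protein class, 11 are fibrillar chains, 8 are basement membrane chains (the type IV chains with Col15a1 and Col18a1) and 25 are other chains. The study sequenced RNA of mouse liver progenitor-like cells (LPCs), cultured cells with progenitor features that were obtained from 3 starting cell populations. Its stated question was how LPCs from hepatocytes differ from LPCs from non-parenchymal cells, and it added LPCs from bile ducts.

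All 6 libraries came from C57BL/6 mice labelled 6 to 8 weeks old, and Transition and Expansion Medium (TEM) was used for all cells. Each group has 2 libraries. Bec_LPCs are Epcam+ cells of WT mice that grew out of pieces of intrahepatic bile duct in matrigel, formed a monolayer after 1 or 2 passages and were sorted. NPC_LPCs came from non-parenchymal liver cells of AlbCreERT/R26GFP mice, in which an inducible Cre under the albumin driver turns on GFP. Hep_LPCs came from hepatocytes of ROSA26tdTomato mice given AAV8-TBG-Cre, a virus that carries Cre under a hepatocyte promoter, and the mice of both lineage models were 8 weeks old. Whether replicates come from different cultures or animals is not in the labels. Every p-value therefore reflects only how far libraries spread within the groups of its fit, which may be technical. Both comparisons with Bec_LPCs were fitted on all 6 libraries, so the spread of the group not compared enters them too. The labels also do not say how many animals were pooled or whether any cell of another lineage was left after purification.

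Collagens are secreted proteins whose chains wind into triple helices. Fibrillar collagens such as types I, III and V form the rope-like fibres of connective tissue, and in the liver they are known mainly as products of stellate cells and portal fibroblasts and as the scar of fibrosis. Type IV collagen forms the network of basement membranes, the sheet on which bile duct epithelium rests, and collagens XV and XVIII sit in the same zone. The remaining classes link fibrils, anchor membranes or build short networks.

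The libraries held between 17575998 and 22985844 counts. Levels are in CPM, counts divided by a library size scaled with the trimmed mean of M values (TMM), and 3 reads, taken as the floor, correspond to between 0.127 and 0.178 CPM. The chi-square of the replicates' counts per degree of freedom, which is about 1 for sampling noise alone, was 5.7 for Bec_LPCs, 113 for NPC_LPCs and 94.8 for Hep_LPCs, so both Bec_LPCs libraries lie much closer together than the other pairs. The Bec_LPCs tables are also laid out differently from the others, and cell source and table making cannot be told apart in comparisons with them. Of the defining biliary markers, Krt19 was at 472 and 441 CPM in Bec_LPCs, 117 and 282 CPM in NPC_LPCs and 1511 and 932 CPM in Hep_LPCs. Epcam, the surface protein named for the bile duct cells, was at 59.0 and 65.7 CPM in Bec_LPCs and at 2, 12, 6 and 31 reads in the NPC_LPCs and Hep_LPCs libraries. Of the hepatocyte markers, albumin (Alb) had between 2 and 41 reads in every library and Apoa1 had 95 and 16 reads in Hep_LPCs and 0 or 1 elsewhere. Hnf4a, a hepatocyte transcription factor, was at 126 and 104 CPM in Bec_LPCs, 28.8 and 51.2 CPM in NPC_LPCs and 248 and 263 CPM in Hep_LPCs. Markers of stellate cells and fibroblasts (10 genes) summed to 102 and 123 CPM in Bec_LPCs and to between 4.22 and 12.4 CPM in the other 4 libraries. The contractile actin Acta2 alone made up 77.6 and 94.1 CPM of the Bec_LPCs sums.

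Start regions are shown for the 4 fibrillar chains with entries in RefSeq's promoter table whose reads were at 0 in both libraries of a group, and for the Col4a1 and Col4a2 pair, whose genes share their start. In the RefSeq table (build mm10), 35 of the 44 chains had an entry, in 38 windows of 300 bases. The letters searched on both strands were CCAAT (the CCAAT box), TATAAA (the TATA box) and GGGCGG (the GC box), and matches are in capitals. Matches on the other strand appear as their reverse complement, and no match printed overlaps another. CCAAT was in 13 of the 38 collagen windows and in 37.4% of all 32851 windows. TATAAA was in 5 of the 38 and in 13.6% of all, and GGGCGG was in 23 of the 38 and in 35.7% of all. The 250 bases before the start are given 5' to 3' on the gene's strand for Col3a1 (chr1:45311288-45311537, plus strand), Col11a1 (chr3:114030290-114030539, plus strand) and Col5a3 (chr9:20815068-20815317, minus strand). For Col1a2 the stretch is chr6:4505368-4505522 on the plus strand.
Col3a1: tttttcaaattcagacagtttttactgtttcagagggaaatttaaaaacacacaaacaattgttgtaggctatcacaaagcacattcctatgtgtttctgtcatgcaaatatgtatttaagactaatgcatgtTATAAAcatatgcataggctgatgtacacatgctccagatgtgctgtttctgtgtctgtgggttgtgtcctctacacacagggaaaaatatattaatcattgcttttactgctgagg
Col11a1: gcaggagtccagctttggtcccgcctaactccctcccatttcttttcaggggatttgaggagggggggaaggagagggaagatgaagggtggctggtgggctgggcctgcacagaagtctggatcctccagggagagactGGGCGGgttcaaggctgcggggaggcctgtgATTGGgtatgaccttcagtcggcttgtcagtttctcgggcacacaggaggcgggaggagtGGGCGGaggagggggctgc
Col5a3: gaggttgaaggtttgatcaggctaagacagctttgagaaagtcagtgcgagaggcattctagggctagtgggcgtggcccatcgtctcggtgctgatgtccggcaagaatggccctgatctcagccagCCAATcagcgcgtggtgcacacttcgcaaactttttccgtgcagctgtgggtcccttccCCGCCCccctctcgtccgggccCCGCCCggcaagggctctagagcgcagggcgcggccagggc
Col1a2: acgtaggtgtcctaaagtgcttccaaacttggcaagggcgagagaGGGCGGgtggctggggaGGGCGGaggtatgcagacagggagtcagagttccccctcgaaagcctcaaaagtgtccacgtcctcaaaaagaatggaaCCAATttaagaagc

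The Col3a1 window holds TATAAA 117 bases before the RefSeq start and no CCAAT or GGGCGG in the bases shown. In Col11a1 CCAAT lies on the other strand 79 bases before the start, and GGGCGG lies at 110 and 19 bases before it. In Col5a3 CCAAT is 122 bases before the start, with GGGCGG on the other strand at 63 and 41 bases. In Col1a2 CCAAT is 109 bases before the RefSeq start and GGGCGG is at 205 and 188 bases, and a longer GENCODE M21 model of this gene begins further upstream. These are matches of letters, not measured binding.

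Col4a1 (chr8:11198423-11312826, minus strand) and Col4a2 (chr8:11312805-11449287, plus strand) lie head to head, and their first exons overlap by 22 bases. The overlap is shown with 4 bases on each side, chr8:11312801-11312830, once on each gene's strand, with the GGGCGG it contains in capitals.
Col4a2: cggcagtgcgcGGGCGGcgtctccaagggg
Col4a1: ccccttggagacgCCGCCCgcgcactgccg

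The shared start is 0.295% of the exonic length of Col4a1 and 0.332% of that of Col4a2. Col4a3 and Col4a4 on chromosome 1 are also head to head, 72 bases apart, as are Col4a5 and Col4a6 on X, 1309 bases apart. Col3a1 (chr1:45311538-45349706, plus strand) and Col5a2 (chr1:45374321-45503282, minus strand) lie tail to tail, 24615 bases apart.

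Basement membrane chains made up most of the collagen RNA in every library, and Hep_LPCs held the least collagen RNA. Collagen reads were 0.331% and 0.350% of the reads of shared genes in Bec_LPCs, 0.314% and 0.496% in NPC_LPCs, and 0.0884% and 0.155% in Hep_LPCs. Both Hep_LPCs libraries lay below the other 4. RNA was measured in bulk, so fewer cells of a type and less RNA per cell cannot be told apart. To compare chains of different length, CPM was divided by the length in kilobases of the transcript with the longest coding sequence. Summed over the 44 chains, this per-length level was 470.4 and 498 in Bec_LPCs, 499.6 and 780.4 in NPC_LPCs, and 151 and 263 in Hep_LPCs.

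The share of basement membrane chains in that sum was 81.8% ± 0.115 (SD, n = 2) in Bec_LPCs, 84.0% ± 5.60 (SD, n = 2) in NPC_LPCs and 92.5% ± 0.770 (SD, n = 2) in Hep_LPCs. The NPC_LPCs libraries, at 80.0% and 87.9%, lie on either side of the Bec_LPCs libraries, at 81.7% and 81.9%, and both Hep_LPCs libraries lie above them. The fibrillar share was 10.2% and 10.4% in Bec_LPCs, 6.80% and 2.99% in NPC_LPCs and 4.55% and 3.21% in Hep_LPCs, so Bec_LPCs stood above both other groups, which overlapped. The share of the other chains was 8.03% and 7.72% in Bec_LPCs, 13.2% and 9.08% in NPC_LPCs and 3.49% and 3.74% in Hep_LPCs, with no overlap between groups. With 2 libraries a group no exact test of these shares could reach a p under 0.05, and none was run.

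**Figure D1:**
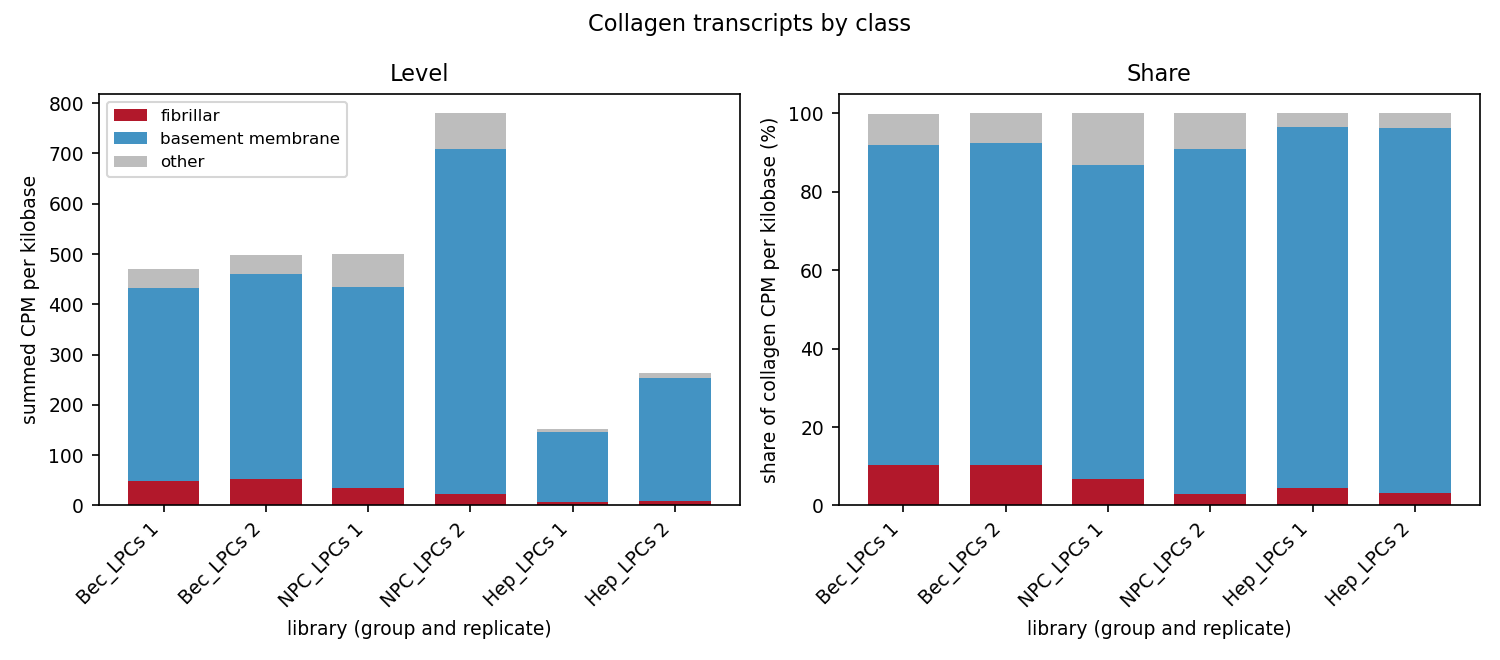
Collagen RNA by class in each of the 6 libraries: the left panel stacks the summed CPM per kilobase of fibrillar, basement membrane and other chains, and the right panel gives each class as a percent of that sum. Basement membrane chains fill 80.0% or more of every bar on the right, and the Hep_LPCs bars on the left are the lowest, at 151 and 263.

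The same chains led the sum everywhere, in an order that differed between groups. In Bec_LPCs and NPC_LPCs Col4a1 was highest per length, then Col4a2, then Col18a1, and in both Hep_LPCs libraries Col18a1 came before Col4a1 and Col4a2. Col18a1, which encodes the precursor of the endostatin fragment, held 12.6% of collagen RNA per length in both Bec_LPCs libraries, 21.3% and 15.5% in NPC_LPCs and 42.8% and 44.7% in Hep_LPCs. Col4a1 and Col4a2, the chains of the common type IV network, together held 63.8% and 64.7% in Bec_LPCs, 54.5% and 71.3% in NPC_LPCs and 46.4% and 45.3% in Hep_LPCs. The type I and III chains Col1a1, Col1a2 and Col3a1 together held 3.79% and 4.24% in Bec_LPCs and between 0.0975% and 0.477% in the other 4 libraries.

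Bec_LPCs had more of many collagen chains than Hep_LPCs, and fewer chains were called in Bec_LPCs against NPC_LPCs. A chain was called at an adjusted p under 0.05 from edgeR's quasi-likelihood test, with Benjamini-Hochberg adjustment over all genes tested. Against Hep_LPCs, 26 chains passed the filter on low counts, of which 12 were higher in Bec_LPCs and 0 lower (46.2%), and 15 had an unadjusted p under 0.05. Of all 12868 genes tested there 33.4% were called, 16.1% higher and 17.2% lower. The median log2 fold change was 1.94 over the 26 chains and 0.03 over all genes. Against NPC_LPCs, 4 of 26 tested chains were higher in Bec_LPCs and 2 lower (23.1%), beside 11.3% of all genes, 4.88% higher and 6.44% lower. The median there was 0.64 for the chains and 0.01 for all genes. In Hep_LPCs against NPC_LPCs, 19 chains were tested, 2 were lower and 0 higher (10.5%), beside 0.781% of all 12159 genes, 0.354% higher and 0.428% lower. Of those 19 fold changes 17 were below 0, with a median of -1.37 against -0.00 over all genes, and 11 chains had an unadjusted p under 0.05. Unlike the other comparisons, this one was fitted on 4 libraries, so its counts cannot be ranked against theirs. In the fit of all 6 libraries 8 of 26 chains were called, 1 higher and 7 lower, beside 1274 of all 12868 genes. A chain that passes the filter through one high group had to differ, so these shares describe the tested chains and not all 44.

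Which library was left out changed these counts. Calls over all genes also changed, as given at the end, but not always in step with those of the chains. Without Bec_LPCs replicate 1 or without Bec_LPCs replicate 2, 3 chains were called against Hep_LPCs, namely Col12a1, Col16a1 and Col27a1, and 0 against NPC_LPCs. Without Hep_LPCs replicate 1 there were 6 calls against Hep_LPCs, 5 higher and 1 lower. The lower one was Col18a1 (log2 fold change -0.95, adjusted p = 0.0216 by edgeR's test). In Hep_LPCs against NPC_LPCs, leaving out either Hep_LPCs library left 0 of all genes called by edgeR, and leaving out NPC_LPCs replicate 1 gave 4 calls, all lower. DESeq2's Wald test on the same libraries called 10 chains in Hep_LPCs against NPC_LPCs (1 higher, 9 lower) and 1499 genes in all. The 3 comparisons share libraries, and each is read on its own.

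**Figure D2:**
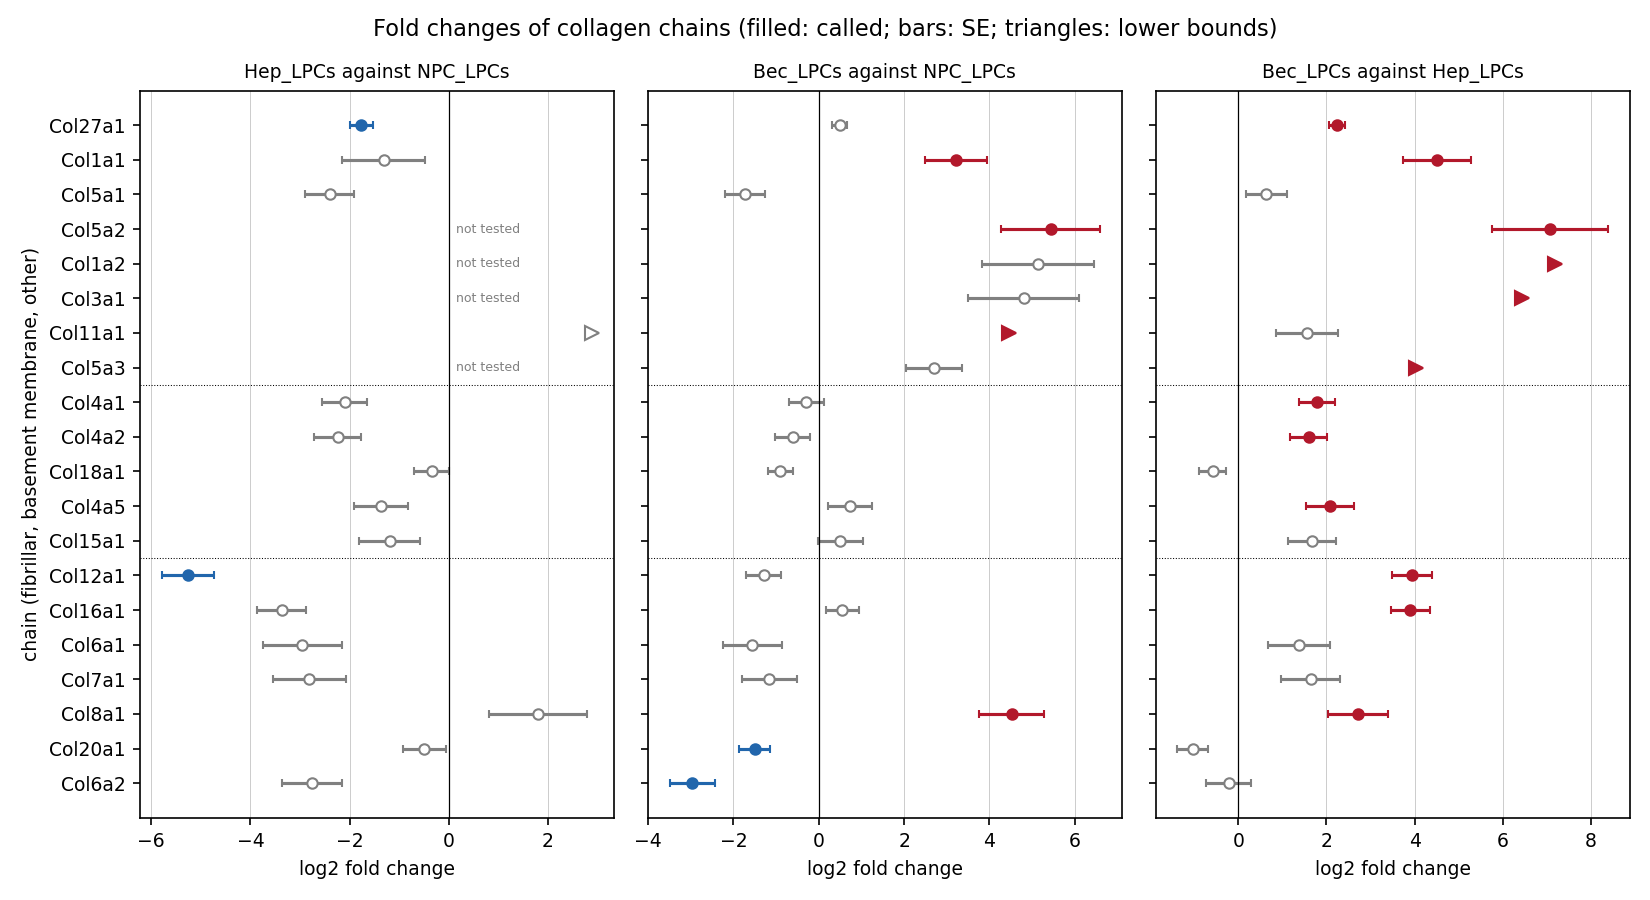
Log2 fold change (x axis) of the 20 chains given in every library, in 3 comparisons; bars are SE, filled points are called at an adjusted p under 0.05, and triangles are lower bounds where a group had 0 reads. In the right panel 12 chains are filled and all lie above 0, and in the left panel the filled points are Col27a1 at -1.76 and Col12a1 at -5.26.

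The type I and III chains, the main components of connective tissue fibres, were found mostly in Bec_LPCs. Col1a1 (chr11:94936224-94953042) was at 63.7 and 76.9 CPM in Bec_LPCs, 2.89 and 12.1 CPM in NPC_LPCs and 4.27 and 1.90 CPM in Hep_LPCs. Bec_LPCs lay above the other 4 libraries, and the NPC_LPCs and Hep_LPCs ranges overlapped. Col1a1 was higher in Bec_LPCs than in Hep_LPCs by 4.51 ± 0.77 (log2, SE; edgeR adjusted p = 0.0114) and than in NPC_LPCs by 3.22 ± 0.72 (edgeR adjusted p = 0.0447). Col1a2 (chr6:4504814-4541544), its partner in the type I trimer, had 539 and 677 reads in Bec_LPCs, 0 and 28 in NPC_LPCs and 0 and 0 in Hep_LPCs. It was at least 146-fold higher in Bec_LPCs than in Hep_LPCs (edgeR adjusted p = 0.0194). Col3a1, the type III chain, had 370 and 354 reads in Bec_LPCs, 0 and 21 in NPC_LPCs and 0 and 0 in Hep_LPCs, and was at least 87.1-fold higher in Bec_LPCs than in Hep_LPCs (edgeR adjusted p = 0.0212). All NPC_LPCs reads of both genes were in replicate 2, and neither was called in Bec_LPCs against NPC_LPCs, with adjusted p of 0.0720 and 0.0813 by edgeR's test. Without NPC_LPCs replicate 2 these were 0.0195 and 0.0203, and without NPC_LPCs replicate 1 they were 0.0327 and 0.0363.

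Some markers of stellate cells and fibroblasts were highest in Bec_LPCs, as these chains were, and others were not. Acta2, a contractile actin of activated stellate cells and muscle, was at 77.6 and 94.1 CPM in Bec_LPCs, 0 and 2.34 CPM in NPC_LPCs and 0 in both Hep_LPCs libraries. Its 46 reads in NPC_LPCs replicate 2 were in the library that also held the Col1a2 and Col3a1 reads. Pdgfrb, a receptor of stellate cells and pericytes, had 105 and 125 reads in Bec_LPCs and 0 or 1 in the other 4 libraries, and Rgs5, a pericyte gene, had 237 and 373 in Bec_LPCs and 4 to 22 elsewhere. Lrat and Lum, also on the list, were at 0 in all 6 libraries, and Dcn had 1 read in each Bec_LPCs library, 26 and 6 in NPC_LPCs and 7 and 1 in Hep_LPCs. Reln, a stellate cell gene, was at 7.30 and 4.33 CPM in Bec_LPCs, 0.520 and 1.17 CPM in NPC_LPCs and 9.25 and 5.70 CPM in Hep_LPCs. Pdgfra, a fibroblast receptor, had 6 and 11 reads in Bec_LPCs, 7 and 0 in NPC_LPCs and 12 and 17 in Hep_LPCs. Of the 10 markers, 3 were at or under 3 reads in each Bec_LPCs library and 5 or 6 in each of the others. The part of such cells in the fibrillar result was not tested. Without any one library other than NPC_LPCs replicate 2, the call of Col1a1 against NPC_LPCs was lost (adjusted p 0.0537 to 0.233 by edgeR's test). Without Bec_LPCs replicate 1 the adjusted p of Col1a1 against Hep_LPCs was 0.0583, and without replicate 2 it was 0.0590. Leaving out any one Bec_LPCs or Hep_LPCs library raised that of Col1a2 to between 0.0521 and 0.123 and that of Col3a1 to between 0.0571 and 0.114, all by edgeR's test.

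**Figure D3:**
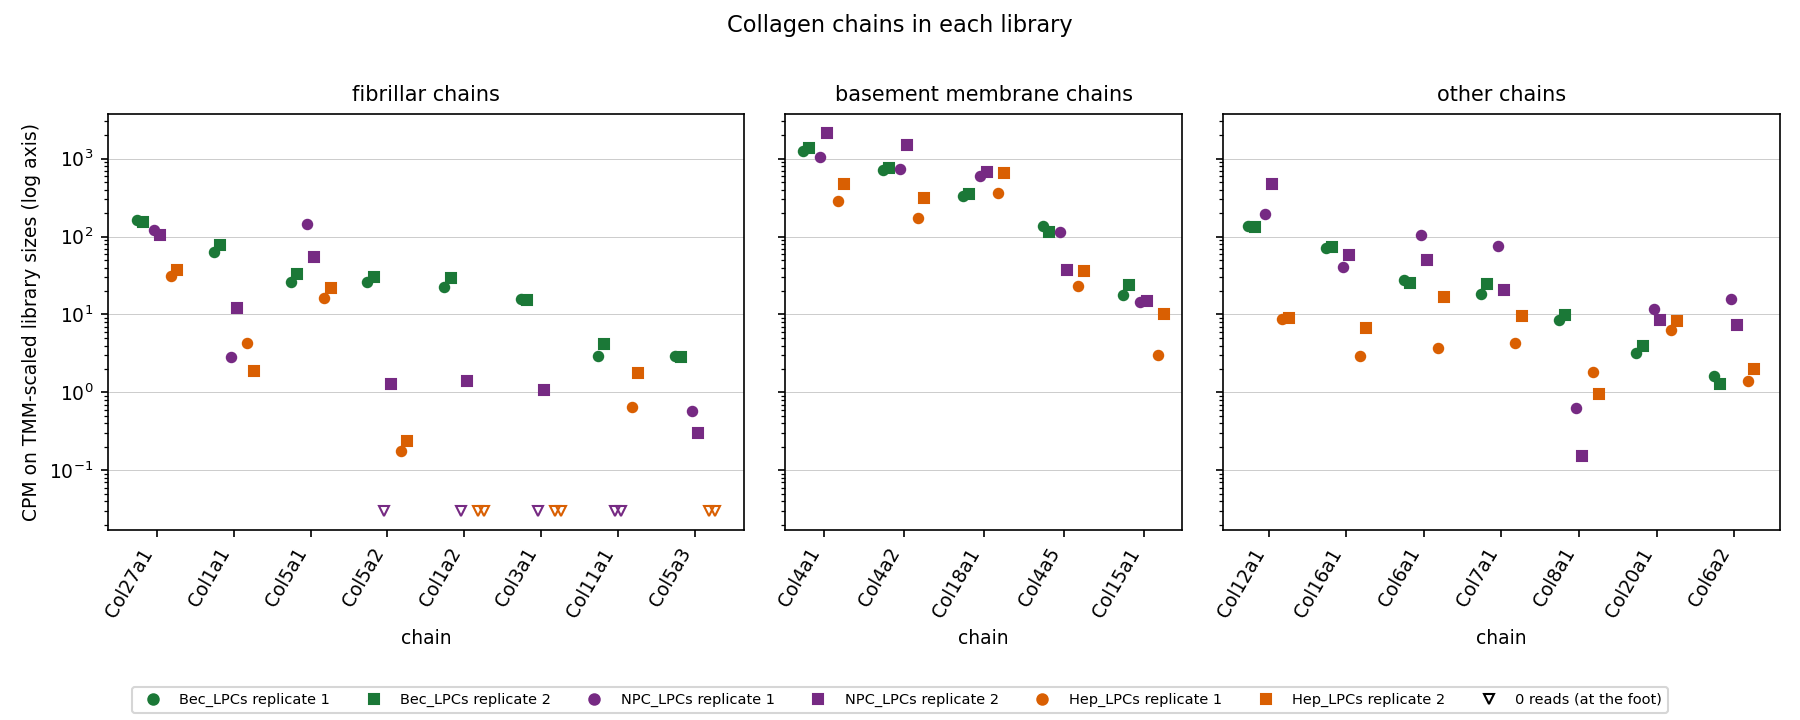
CPM (log axis) of the 20 chains given in every library, by class, with 1 point for each library and open triangles at the foot for 0 reads. The Bec_LPCs points of Col1a1, Col5a2, Col1a2, Col3a1 and Col5a3 lie above all others, and those of Col18a1, between 330.4 and 352 CPM, lie below.

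The type V chains, which help start fibrils, did not move together. Col5a1 (chr2:27886425-28039514) was at 26.2 and 33.3 CPM in Bec_LPCs, 144 and 54.9 CPM in NPC_LPCs and 16.2 and 21.9 CPM in Hep_LPCs, with no overlap between groups and a wide gap within NPC_LPCs. It was called in none of the 3 comparisons, with edgeR adjusted p of 0.0818 for Hep_LPCs against NPC_LPCs and 0.0665 for Bec_LPCs against NPC_LPCs. Without NPC_LPCs replicate 2 these were 0.0278 and 0.0238. Its partner Col5a2 had 629 and 711 reads in Bec_LPCs, 0 and 25 in NPC_LPCs and 3 and 4 in Hep_LPCs. Col5a2 was higher in Bec_LPCs than in Hep_LPCs by 7.07 ± 1.32 (log2, SE; edgeR adjusted p = 0.0139) and than in NPC_LPCs by 5.44 ± 1.16 (edgeR adjusted p = 0.0415). Col5a3 (chr9:20770050-20815067), a less common type V chain, had 70 and 66 reads in Bec_LPCs, 10 and 6 in NPC_LPCs and 0 in both Hep_LPCs libraries, and was at least 16.4-fold higher in Bec_LPCs than in Hep_LPCs (edgeR adjusted p = 0.00833). Leaving out any one Bec_LPCs or Hep_LPCs library ended the Col5a2 call against Hep_LPCs (adjusted p 0.0566 to 0.0857), and leaving out either Bec_LPCs library ended that of Col5a3 (0.0741 and 0.0718). The Col5a2 call against NPC_LPCs was lost without any one Bec_LPCs or Hep_LPCs library (0.0549 to 0.253). Col5a3 was not called against NPC_LPCs (adjusted p = 0.0652 by edgeR's test), and without either Hep_LPCs library it was (0.0445 and 0.0444).

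Col11a1 (chr3:114030540-114220718), a chain related to type V that is best known from cartilage, had 69 and 99 reads in Bec_LPCs, 0 in both NPC_LPCs libraries and 11 and 30 in Hep_LPCs. It was at least 22.0-fold higher in Bec_LPCs than in NPC_LPCs (edgeR adjusted p = 0.0238), and without any one Bec_LPCs or NPC_LPCs library the adjusted p was between 0.0508 and 0.166. Col27a1 (chr4:63214004-63334991), a fibrillar chain first known from cartilage, was the most abundant fibrillar chain by CPM in all libraries but NPC_LPCs replicate 1. It was at 165 and 154 CPM in Bec_LPCs, 121 and 106 CPM in NPC_LPCs and 31.0 and 36.9 CPM in Hep_LPCs, so the groups did not overlap and Hep_LPCs were lowest. Col27a1 was lower in Hep_LPCs than in NPC_LPCs (log2 fold change -1.76 ± 0.24, edgeR adjusted p = 0.0487) and higher in Bec_LPCs than in Hep_LPCs by 2.23 ± 0.18 (edgeR adjusted p = 0.00182). The first of these calls did not survive leaving out any one library, with adjusted p of 0.0646 without NPC_LPCs replicate 1, 0.0735 without NPC_LPCs replicate 2, and 0.192 and 0.209 without either Hep_LPCs library. The second held in each fit without one library. The stellate cell and fibroblast markers summed to 4.45 and 4.22 CPM in NPC_LPCs and to 12.4 and 9.20 CPM in Hep_LPCs, of which Reln made up 9.25 and 5.70 CPM, and their part in the Col27a1 result was not tested.

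By class, 6 of the 10 fibrillar chains tested were higher in Bec_LPCs than in Hep_LPCs and 3 of 10 higher than in NPC_LPCs (beside 16.1% and 4.88% of all genes), with median log2 fold changes of 3.48 (3.25 with genes at 0 set to their bounds) and 2.96. Col1a2, Col3a1, Col5a2 and Col5a3 passed the filter only with the Bec_LPCs libraries in the fit, so they had to be higher there. These counts and medians therefore describe the tested chains and are no test of the class. Between Hep_LPCs and NPC_LPCs 1 of 6 was lower, Col27a1, with a median of -0.67. Over 3 reads were counted for 10 and 11 of the 11 fibrillar chains in the Bec_LPCs libraries, for 6 and 8 in NPC_LPCs and for 4 and 7 in Hep_LPCs. The low chains were Col11a2 (0 to 71 reads), Col2a1, the main cartilage collagen (3 to 19 reads), and Col24a1 (0 to 13 reads). Bec_LPCs libraries were also deeper, at 22985844 and 22634867 counts against at most 20625957 in the others.

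The type IV chains Col4a1 and Col4a2 were the most abundant collagen transcripts by CPM in Bec_LPCs and NPC_LPCs, and both were higher in Bec_LPCs than in Hep_LPCs. Col4a1 was at 1263 and 1361 CPM in Bec_LPCs, 1047 and 2158 CPM in NPC_LPCs and 288 and 472 CPM in Hep_LPCs. Col4a2 was at 705 and 751 CPM in Bec_LPCs, 736 and 1483 CPM in NPC_LPCs and 171 and 309 CPM in Hep_LPCs. In both genes Hep_LPCs lay below every other library, and NPC_LPCs replicate 2 stood above its replicate. Col4a1 was higher in Bec_LPCs than in Hep_LPCs by 1.79 ± 0.41 (log2, SE; edgeR adjusted p = 0.0232) and Col4a2 by 1.60 ± 0.42 (edgeR adjusted p = 0.0343). Without either Bec_LPCs library or without Hep_LPCs replicate 1, the adjusted p of Col4a1 was 0.0986, 0.105 and 0.0942 and that of Col4a2 was 0.128, 0.133 and 0.122. In Hep_LPCs against NPC_LPCs the log2 fold changes were -2.10 ± 0.46 and -2.24 ± 0.48, with edgeR adjusted p of 0.0908 and 0.0868, so neither passed. Without NPC_LPCs replicate 1 they were 0.0258 and 0.0273. Between Bec_LPCs and NPC_LPCs the fold changes were -0.29 ± 0.40 and -0.61 ± 0.41, and neither was called.

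Col18a1 (chr10:77052178-77166548) differed from type IV in its order of levels. It was at 330.4 and 352 CPM in Bec_LPCs, 596 and 679 CPM in NPC_LPCs and 362 and 659 CPM in Hep_LPCs. Bec_LPCs were lowest, without overlap, and the Hep_LPCs libraries spanned most of the range up to NPC_LPCs. It was called in none of the comparisons, with log2 fold changes of -0.58 ± 0.30 for Bec_LPCs against Hep_LPCs (edgeR adjusted p = 0.174), -0.90 ± 0.30 for Bec_LPCs against NPC_LPCs (edgeR adjusted p = 0.104) and -0.34 ± 0.35 for Hep_LPCs against NPC_LPCs (edgeR adjusted p = 0.596). Without Hep_LPCs replicate 1 the first had an adjusted p of 0.0216, the second one of 0.0239 and the third turned to 0.04. Without Hep_LPCs replicate 2 the second had one of 0.0237.

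Col4a5 (chrX:141475385-141689234), the chain whose loss causes X-linked Alport syndrome, was at 137 and 114 CPM in Bec_LPCs, 115 and 37.5 CPM in NPC_LPCs and 23.1 and 36.4 CPM in Hep_LPCs. It was higher in Bec_LPCs than in Hep_LPCs by 2.08 ± 0.54 (log2, SE; edgeR adjusted p = 0.0336), and without any one Bec_LPCs or Hep_LPCs library the adjusted p was between 0.0775 and 0.145. NPC_LPCs replicate 1 lay in the Bec_LPCs range and replicate 2 just above Hep_LPCs. Col15a1 (chr4:47208161-47313167), the multiplexin close to Col18a1, was at 18.0 and 23.7 CPM in Bec_LPCs, 14.5 and 15.0 CPM in NPC_LPCs and 3.04 and 10.1 CPM in Hep_LPCs, and was not called. Its adjusted p against Hep_LPCs was 0.0621 by edgeR's test, and 0.0107 without Hep_LPCs replicate 2. The remaining type IV chains were lower than these in every library: Col4a3 had 0 to 78 reads, Col4a4 3 to 75 and Col4a6 2 to 41. In all, 3 of the 8 basement membrane chains tested (37.5%) were higher in Bec_LPCs than in Hep_LPCs and 0 lower. Of all genes, 33.4% were called there in either direction, 16.1% higher and 17.2% lower. Against NPC_LPCs 0 of 8 were called, beside 11.3% of all genes, and between Hep_LPCs and NPC_LPCs 0 of 6, beside 0.781%. At an unadjusted p under 0.05 these were 5, 2 and 3 chains by edgeR's test.

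Among the other classes, the fibril-associated chains Col12a1 and Col16a1 separated Hep_LPCs most clearly. Col12a1 (chr9:79598991-79718831), which sits on the surface of type I fibrils, was at 137 and 134 CPM in Bec_LPCs, 192 and 473 CPM in NPC_LPCs and 8.72 and 8.96 CPM in Hep_LPCs. Every group was apart from the others. Col12a1 was lower in Hep_LPCs than in NPC_LPCs (log2 fold change -5.26 ± 0.53, edgeR adjusted p = 0.0339) and higher in Bec_LPCs than in Hep_LPCs by 3.94 ± 0.46 (edgeR adjusted p = 0.00427). Without Hep_LPCs replicate 1 or 2 the former had an adjusted p of 0.197 or 0.210. Against NPC_LPCs the Bec_LPCs level was not called (-1.29 ± 0.41, edgeR adjusted p = 0.0924), but without NPC_LPCs replicate 1 it was (0.0152). Col16a1 (chr4:130047840-130099283), another fibril-associated chain, was at 70.5 and 74.1 CPM in Bec_LPCs, 40.2 and 58.3 CPM in NPC_LPCs and 2.93 and 6.76 CPM in Hep_LPCs. It was higher in Bec_LPCs than in Hep_LPCs by 3.90 ± 0.44 (edgeR adjusted p = 0.00409), also in each fit without one library. For Hep_LPCs against NPC_LPCs the log2 fold change was -3.37 ± 0.50 with an edgeR adjusted p of 0.0572, and 0.0224 without NPC_LPCs replicate 1. Col20a1 (chr2:180986535-181018363), of the same class, was at 3.25 and 3.94 CPM in Bec_LPCs, 11.9 and 8.54 CPM in NPC_LPCs and 6.32 and 8.37 CPM in Hep_LPCs. It was lower in Bec_LPCs than in NPC_LPCs (-1.50 ± 0.36, edgeR adjusted p = 0.0497), and without any one Bec_LPCs or NPC_LPCs library the adjusted p was between 0.0570 and 0.383.

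Type VI collagen forms beaded filaments from Col6a1, Col6a2 and a further chain, most often Col6a3. Col6a1 (chr10:76708792-76726168) was at 27.9 and 25.1 CPM in Bec_LPCs, 106 and 50.3 CPM in NPC_LPCs and 3.75 and 16.7 CPM in Hep_LPCs. The groups did not overlap, but it was called in none of the comparisons, the lowest edgeR adjusted p being 0.134 for Hep_LPCs against NPC_LPCs. Without Hep_LPCs replicate 2 the difference of Bec_LPCs from Hep_LPCs was 2.82 with an adjusted p of 0.0302. Col6a2 (chr10:76595762-76623630) was at 1.65 and 1.29 CPM in Bec_LPCs, 15.8 and 7.27 CPM in NPC_LPCs and 1.40 and 2.02 CPM in Hep_LPCs. Col6a2 was lower in Bec_LPCs than in NPC_LPCs (-2.97 ± 0.53, edgeR adjusted p = 0.0280). Without NPC_LPCs replicate 1 its adjusted p was 0.0591, and without either Bec_LPCs library 0.213 and 0.251. Col6a3 had 4 and 16 reads in Bec_LPCs, 0 in both NPC_LPCs libraries and 9 and 0 in Hep_LPCs. The alternatives to Col6a3, Col6a4 and Col6a6, were at 0 in all 6 libraries, and Col6a5 had at most 6 reads. Col6a5 and Col6a6 each share a near-identical stretch with another gene, and reads from it may be missing from these counts.

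Col7a1 (chr9:108953586-108984875), the chain of the anchoring fibrils that tie epithelium to the tissue below, was at 18.5 and 24.4 CPM in Bec_LPCs, 74.9 and 20.8 CPM in NPC_LPCs and 4.27 and 9.43 CPM in Hep_LPCs. NPC_LPCs replicate 2 lay in the Bec_LPCs range, both Hep_LPCs libraries lay lowest, and no comparison was called, with edgeR adjusted p of 0.107 to 0.280. Without NPC_LPCs replicate 2, Hep_LPCs against NPC_LPCs had an adjusted p of 0.0398. Bec_LPCs against Hep_LPCs had one of 0.0464 without NPC_LPCs replicate 1 and of 0.0432 without NPC_LPCs replicate 2. Col8a1 (chr16:57624258-57754737), a short chain of vascular and corneal networks, was at 8.40 and 9.73 CPM in Bec_LPCs, 0.635 and 0.152 CPM in NPC_LPCs and 1.81 and 0.949 CPM in Hep_LPCs. Bec_LPCs were highest and the groups did not overlap. Col8a1 was higher in Bec_LPCs than in NPC_LPCs by 4.52 ± 0.76 (log2, SE; edgeR adjusted p = 0.0239) and than in Hep_LPCs by 2.71 ± 0.68 (edgeR adjusted p = 0.0304). Without either Bec_LPCs library the first had an adjusted p of 0.151 and 0.179, and without any one Bec_LPCs or Hep_LPCs library the second had one between 0.0620 and 0.170. Over the class, 3 of 8 tested chains (37.5%) were higher in Bec_LPCs than in Hep_LPCs and 0 lower. Of all genes, 33.4% were called there in either direction, 16.1% higher and 17.2% lower. Against NPC_LPCs 1 was higher in Bec_LPCs and 2 were lower, beside 4.88% and 6.44% of all genes.

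The other 24 chains averaged under 10 CPM in every group. Col11a2, Col2a1, Col4a3, Col4a4, Col4a6 and Col9a3 passed the filter in at least 1 comparison and were not called. The rest of the 24 passed it in none and were not tested. Of the 24 chains, 4 had 0 reads in all 6 libraries, namely Col19a1, Col6a4, Col6a6 and Col9a1. The 20 with reads reached at most 78 reads or 3.34 CPM (Col4a3 in Bec_LPCs). The transmembrane collagen Col17a1, a hemidesmosome component of stratified epithelium, had at most 4 reads, and Col14a1, a fibril-associated chain of connective tissue, at most 11. Of all 44 chains, over 3 reads were counted for 33 and 32 in Bec_LPCs, 25 and 24 in NPC_LPCs and 22 and 23 in Hep_LPCs. In 16 chains both Bec_LPCs libraries had more CPM than every other library. The share of all genes with that order was not counted, so this describes the chains only.

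Chains that assemble together were compared per kilobase within each library, where both had over 3 reads. Col4a1 exceeded Col4a2 by ratios of 1.75 and 1.77 in Bec_LPCs, 1.39 and 1.42 in NPC_LPCs and 1.65 and 1.49 in Hep_LPCs, a narrow range while the levels themselves differed widely. Col1a1 exceeded Col1a2 by 2.53 and 2.39 in Bec_LPCs and by 7.67 in NPC_LPCs replicate 2. In the other 3 libraries Col1a1 had 50, 73 and 32 reads and Col1a2 had 0. Col5a1 and Col5a2 were near parity in Bec_LPCs, at 0.777 and 0.861, whereas Col5a1 was in excess by 34.1 in NPC_LPCs replicate 2 and by 72.7 in Hep_LPCs replicate 2. In NPC_LPCs replicate 1 Col5a1 had 2497 reads and Col5a2 had 0. Col6a1 exceeded Col6a2 by 16.3 and 18.8 in Bec_LPCs, 6.45 and 6.67 in NPC_LPCs and 2.57 and 7.96 in Hep_LPCs. Ratios with few reads of one chain, such as 25 and 4 reads of Col5a2, carry a large counting error.

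**Figure D4:**
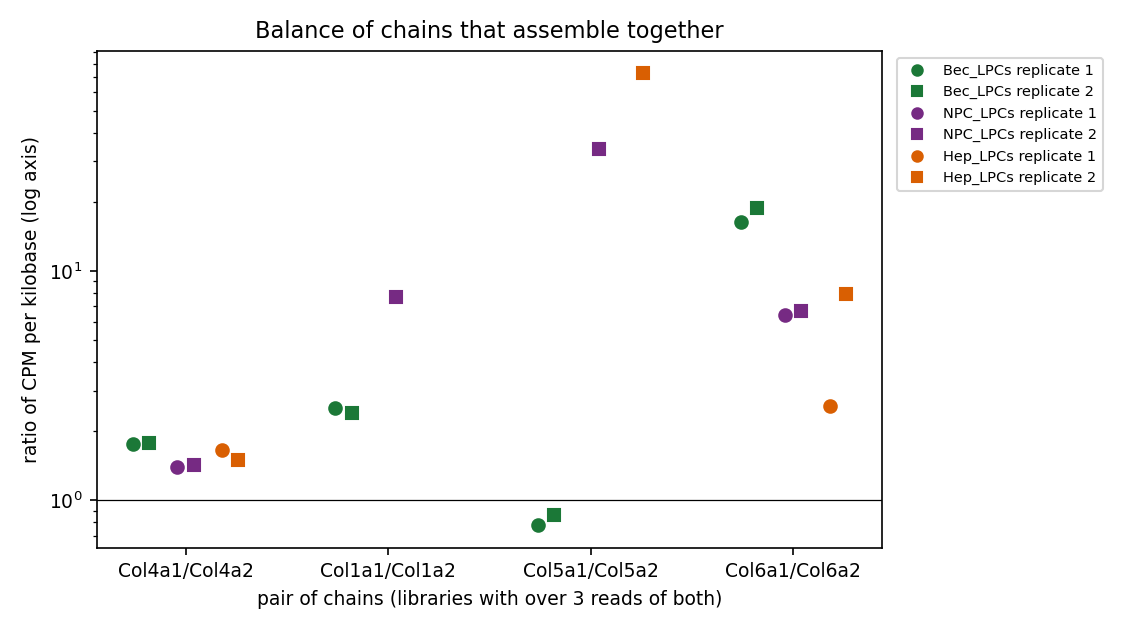
Ratio of the per-kilobase levels of 4 pairs of chains (log axis), 1 point for each library with over 3 reads of both chains; the line marks equal levels. Col4a1/Col4a2 stays between 1.39 and 1.77 in all 6 libraries, and Col5a1/Col5a2 lies below 1 in both Bec_LPCs libraries and above 1 in the 2 others that have a point.

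Genes that modify, process, bind or sense collagen were taken from 4 lists of 51 genes in all. Against Hep_LPCs, 45 were tested, of which 14 were higher in Bec_LPCs and 5 lower, beside 16.1% and 17.2% of all genes. Against NPC_LPCs 4 of 45 were higher in Bec_LPCs and 1 lower, beside 4.88% and 6.44% of all genes, a share near the background. In Hep_LPCs against NPC_LPCs 1 of 38 was lower and 0 higher, beside 0.428% and 0.354% of all genes. The median log2 fold changes were 0.93, 0.28 and -0.30. Without either Bec_LPCs library these counts were 6 and 0 for the comparisons with Bec_LPCs, without either Hep_LPCs library 11 were called against NPC_LPCs and 0 in Hep_LPCs against NPC_LPCs, and without NPC_LPCs replicate 1 the last was 4. One of the calls rests on row names. Mia2, which helps load collagen into transport vesicles, was higher in Bec_LPCs in both comparisons, but its older neighbour name Ctage5 is a row of its own with 4640 to 7507 reads in the NPC_LPCs and Hep_LPCs tables and is absent from the Bec_LPCs tables. With both rows summed, Mia2 was at 184 and 191 CPM in Bec_LPCs, 347 and 281 CPM in NPC_LPCs and 472 and 491 CPM in Hep_LPCs. Without Mia2 the counts were 13 higher and 5 lower against Hep_LPCs, and 3 higher and 1 lower against NPC_LPCs. No collagen chain had such a second row.

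Of the 19 enzymes, chaperones and loading factors of the endoplasmic reticulum, 1 besides Mia2 was called in any comparison. That call was in Bec_LPCs against Hep_LPCs, where 33.4% of all genes were called. Ppib, the prolyl isomerase that speeds helix folding, was lower in Bec_LPCs than in Hep_LPCs (-1.03 ± 0.20, edgeR adjusted p = 0.0146), at 107 and 97.6 against 189.6 and 228 CPM. The list summed to 2773 and 2792 CPM in Bec_LPCs, 2484 and 2978 CPM in NPC_LPCs and 2222 and 2757 CPM in Hep_LPCs, so the groups overlapped. Serpinh1, the collagen chaperone HSP47, falls outside the naming rule and is given because its values stood apart. It was at 610 and 598 CPM in Bec_LPCs, 0.462 and 314 CPM in NPC_LPCs and 75.6 and 509 CPM in Hep_LPCs, and was called in no comparison. In NPC_LPCs replicate 1 it had 8 reads, in a library where Col4a1 was at 1047 CPM.

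Of 13 tested genes that trim and cross-link collagen outside the cell, 7 were higher in Bec_LPCs than in Hep_LPCs and 2 lower. Of all genes 16.1% were higher there and 17.2% lower. Lox, the enzyme that cross-links fibrils, was at 95.1 and 125 CPM in Bec_LPCs, 90.2 and 13.3 CPM in NPC_LPCs and 0.0585 and 0 CPM in Hep_LPCs (1 read in all). It was called in Bec_LPCs against Hep_LPCs (edgeR adjusted p = 0.00611) and had an adjusted p of 0.0673 in Hep_LPCs against NPC_LPCs. Adamts2, which removes the amino-terminal propeptide of procollagens, was higher in Bec_LPCs than in Hep_LPCs by 2.23 ± 0.48 (edgeR adjusted p = 0.0203), at 6.88 and 6.43 against 1.46 and 1.36 CPM. Pxdn, the peroxidase that cross-links type IV collagen, was higher by 1.08 ± 0.24 (edgeR adjusted p = 0.0225), at 288 and 288 against 136 and 137 CPM. Pcolce, which enhances removal of the carboxy-terminal propeptide, ran the other way: it was at 10.3 and 8.10 CPM in Bec_LPCs, 22.9 and 24.8 CPM in NPC_LPCs and 74.0 and 72.5 CPM in Hep_LPCs. Pcolce was lower in Bec_LPCs than in Hep_LPCs (-2.99 ± 0.21, edgeR adjusted p = 0.00132) and than in NPC_LPCs (-1.37 ± 0.20, edgeR adjusted p = 0.0169).

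Of the matrix partners, Hspg2, the perlecan core protein of basement membranes, was at 997 and 1081 CPM in Bec_LPCs, 761 and 1102 CPM in NPC_LPCs and 162 and 202 CPM in Hep_LPCs. It was lower in Hep_LPCs than in NPC_LPCs (-2.38 ± 0.32, edgeR adjusted p = 0.0481) and higher in Bec_LPCs than in Hep_LPCs by 2.52 ± 0.25 (edgeR adjusted p = 0.00303). Bgn, the fibril-binding proteoglycan biglycan, was at 29.4 and 36.3 CPM in Bec_LPCs and at most 2.03 CPM in the other 4 libraries, and was higher in Bec_LPCs than in NPC_LPCs by 4.76 ± 0.85 (edgeR adjusted p = 0.0273). Tgfbi, a collagen-binding adhesion protein, had 0 reads in both Bec_LPCs libraries and was at 14.5 and 4.21 CPM in Hep_LPCs, at least 73.2-fold lower in Bec_LPCs (edgeR adjusted p = 0.0146). Nid2, a linker of laminin and type IV collagen, was lower in Bec_LPCs than in Hep_LPCs (-1.54 ± 0.39, edgeR adjusted p = 0.0316), at 8.61 and 7.16 against 15.2 and 30.7 CPM. Among receptors, 4 of 7 were higher in Bec_LPCs than in Hep_LPCs and 0 lower, beside 16.1% and 17.2% of all genes. Of these, Ddr2 and Mrc2 passed the filter only with the Bec_LPCs libraries in the fit. Ddr2, the receptor for fibrillar collagen, had 238 and 247 reads in Bec_LPCs and at most 34 elsewhere, and Mrc2, which takes up collagen, was at 5.15 and 7.80 CPM and at most 0.178 CPM elsewhere. Both were also higher in Bec_LPCs than in NPC_LPCs, by 3.26 ± 0.72 (edgeR adjusted p = 0.0443) and 5.82 ± 0.97 (edgeR adjusted p = 0.0238). The integrin chains Itgb1 and Itga2 were higher in Bec_LPCs than in Hep_LPCs by 1.58 ± 0.46 (edgeR adjusted p = 0.0456) and 1.21 ± 0.36 (edgeR adjusted p = 0.0488). Bgn, Ddr2 and Mrc2, like the summed stellate cell and fibroblast markers given above, were highest in both Bec_LPCs libraries. Acta2 made up most of that sum, and Dcn, Reln and Pdgfra were not highest there. The part of such cells in these values was not tested.

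**Figure D5:**
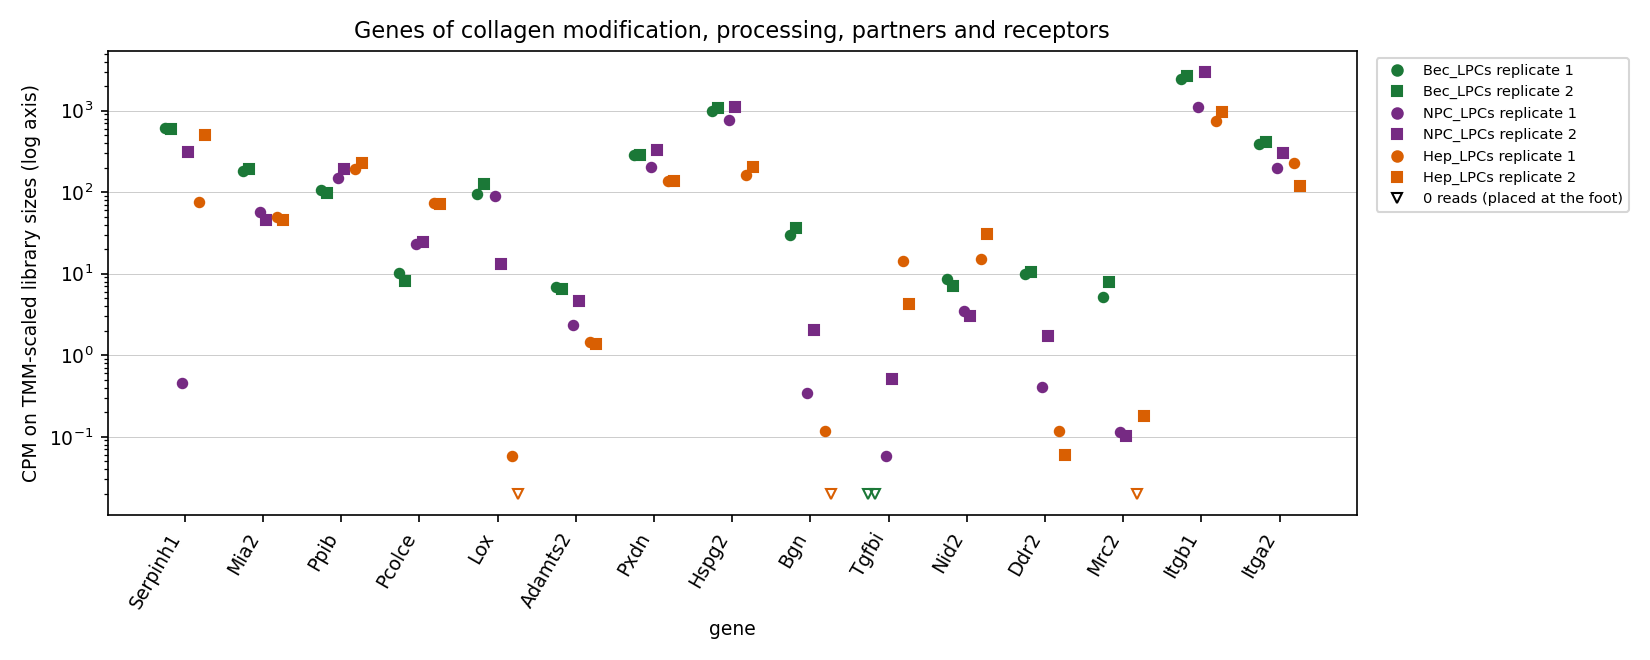
CPM (log axis) in each library of 15 genes that modify, process, bind or sense collagen, with open triangles at the foot for 0 reads; Mia2 is shown without its Ctage5 row. Lox is at 0.0585 and 0 CPM in Hep_LPCs against 95.1 and 125 CPM in Bec_LPCs, and Serpinh1 is at 0.462 CPM in NPC_LPCs replicate 1 alone.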

How the data were processed

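Polyadenylated RNA was sequenced in 6 libraries with a stranded paired-end kit, per the labels' protocols. Trimmomatic, HISAT2, Cufflinks, HTSeq and DESeq on mm10 are listed in the submitters' processing notes, without versions, roles or a strand setting. The authors deposited raw counts per gene symbol for each library and, for NPC_LPCs and Hep_LPCs, also FPKM, which served an alternative only. Nameless rows (14 in each Bec_LPCs table, 0.000191% and 0.000181% of counts) were left out. Older symbols were updated from RefSeq synonyms (16 in Bec_LPCs tables, 843 in the others).

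Groups follow the sample titles. The fits used edgeR 4.0.16 (filterByExpr, TMM, robust glmQLFit, two-sided glmQLFTest, Benjamini-Hochberg adjustment over all genes tested) in R 4.3.3, on the 4 Hep_LPCs and NPC_LPCs libraries for that comparison and on all 6 for the others. A bound against 0 reads uses a floor of 3 reads per library and covers counting error only. Coordinates and lengths are from GENCODE M21 and promoter sequences from RefSeq's GRCm38 table. Overlaps came from bedtools 2.31.1 and near-identical copies from minimap2 2.31-r1302. Of the 44 chains, 41 overlap no other protein-coding gene by over 25% and have no such copy. Col6a5, Col6a6 and Col9a3 each have such a copy.

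Values in every library are given for chains averaging at least 10 CPM in a group or called in a comparison (20 chains). Up to 4 called genes are named from each of the 4 pathway lists. The markers, classes and lists, and the choice of collagens, were made with earlier results of these data known. Alternatives were other scalings, filters, DESeq2 1.42.0, the replicate number as a block, another set of fitted libraries, leaving out 1 library at a time, limma 3.58.1 on log2(FPKM + 1), reads without length scaling and, chosen after seeing the data, the union of exons as length. The statistics were tested on simulated data.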

Additional observations from a re-analysis of the deposited data

How the results depend on the processing

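Of 747 alternative values of 56 fold changes of named chains, 618 kept direction and side of the threshold, and no called fold change of 20 reversed in 272. The 4 that reversed were uncalled: Col18a1 in Hep_LPCs against NPC_LPCs with one library left out (-0.84 to 0.04, the latter without Hep_LPCs replicate 1), Col1a1 there (-1.99 to 0.09, the latter without NPC_LPCs replicate 2), Col4a1 in Bec_LPCs against NPC_LPCs (-0.76 to 0.32, without NPC_LPCs replicate 2) and Col6a2 in Bec_LPCs against Hep_LPCs (-0.46 to 0.06, without Hep_LPCs replicate 2). Chains called in Hep_LPCs against NPC_LPCs (2) were 1 with DESeq2 size factors or library size alone, 7 without the low-count filter, 10 with DESeq2's Wald test, 8 in the fit of all 6 libraries, and 0 to 4 with one library left out. Those in Bec_LPCs against NPC_LPCs (6) were 2 with a filter of 10 CPM, 10 with DESeq2's Wald test, 3 among genes counted alike, and 0 to 7 with one library left out. Those in Bec_LPCs against Hep_LPCs (12) were 3 to 15 with one library left out and 10 to 16 otherwise. Pathway genes called were, in Hep_LPCs against NPC_LPCs (1), 3 without the filter, 2 with the 10 CPM filter, 10 with DESeq2's Wald test, 5 in the fit of all libraries and 0 to 4 with one left out. In Bec_LPCs against NPC_LPCs (5) they were 17 with DESeq2's Wald test, 10 in the fit of both groups alone and 0 to 11 with one left out, and in Bec_LPCs against Hep_LPCs (19) 6 to 19.

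Calls over all genes also changed, though not always in step with the chains. In Hep_LPCs against NPC_LPCs (95) they were 449 without the filter, 173 with the 10 CPM filter, 1499 with DESeq2's Wald test, 1274 in the fit of all libraries, 164 with limma on FPKM, and 0 to 354 with one left out. In Bec_LPCs against NPC_LPCs (1457) they were 2898 with DESeq2's Wald test, 2492 in the fit of both groups alone, 831 among genes counted alike and 115 to 2363 with one left out, and in Bec_LPCs against Hep_LPCs (4293) 491 to 4908. With the replicate number as a block, calls in Bec_LPCs against Hep_LPCs went from 12 to 13 chains but from 4293 to 3389 genes. With the 10 CPM filter, calls in Bec_LPCs against NPC_LPCs went from 6 to 2 chains and from 1457 to 1236 genes. Where a leave-one-out fit leaves 1 library in a group, it is assumed to vary like the others. The causes were not tested.

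The labels do not say whether same-numbered libraries share more than a number. Their deviations from the group mean correlated at -0.0549, 0.154 and -0.0849. With 2 libraries a group these deviations mirror each other, so the values cannot show whether a batch is shared. With the replicate number as a block, 3, 4 and 13 chains were called in Hep_LPCs against NPC_LPCs, Bec_LPCs against NPC_LPCs and Bec_LPCs against Hep_LPCs, and 2 pathway genes in the first; over all genes Bec_LPCs against NPC_LPCs had 770 calls with the block.

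From reads instead of reads per kilobase, the Bec_LPCs shares were 10.8% fibrillar, 80.5% basement membrane and 8.67% other, and the Hep_LPCs shares 4.84% fibrillar and 3.36% other. With the union of exons as length, the Bec_LPCs shares were 8.13%, 84.7% and 7.21%. Depth limits chains near 3 reads.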
